A study of Arabidopsis thaliana with 6 samples.

Results

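The genes described here build and take apart the mitotic machinery of Arabidopsis thaliana: A-type and B-type cyclins, the cyclin-dependent kinases (CDKs) and their CKS adaptors, MYB3R transcription factors, spindle and chromosome proteins, the spindle checkpoint, the anaphase-promoting complex (APC/C) with its activators and inhibitors, and cytokinesis proteins. They were given as a list of 51 gene identifiers, and all 51 are among the 17675 genes of the deposited RNA-seq table. The list goes by known function, but it was drawn up with earlier results of these data known, which bears on every count of its members below.

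DEX-treated inflorescences were set against DMSO-treated ones, with 3 libraries in each group. Both groups carry the construct written ARF3:ARF3-GR in the arf3-29 mutant, in which the auxin response factor ARF3 is fused to part of a glucocorticoid receptor (GR), so that the steroid dexamethasone (DEX) lets it enter the nucleus. The DEX group received 10 µM DEX dissolved in DMSO and the other group DMSO, with the wetting agent Silwet L-77 at 0.015%, on plants 3 weeks old, and flowers of stage 7 and older were removed. The sources used here do not give the treatment time, the number of plants per library or any pooling. No DEX-treated plants that lack the fusion were analysed here, so effects of DEX itself and of ARF3-GR cannot be told apart.

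In dividing plant cells, A-type cyclins act from DNA replication to the start of mitosis, and B-type cyclins with the plant-specific B-type CDKs drive entry into mitosis. MYB3R proteins bind a promoter element with the core AACGG, through which some activate and others repress genes of the G2 and M phases. The APC/C, activated by CDC20 or CCS52 proteins, then marks the cyclins for destruction, and a new wall is laid down from the centre of the cell outward by the phragmoplast, a plant array of microtubules and vesicles. In a young flower these genes are active in the meristem and the organ primordia, where cells divide.

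To show where the AACGG core occurs, the 250 bases before the annotated start are given for 5 B-type cyclin genes. They are written 5′ to 3′ on the gene's strand, from the RefSeq annotation of TAIR10.1, with AACGG or its reverse complement CCGTT in capitals. The first 3 hold the element and the last 2 do not, and each set has members that fell with DEX and members that did not.
CYCB1;1 (chr4:17624309-17624558, minus strand): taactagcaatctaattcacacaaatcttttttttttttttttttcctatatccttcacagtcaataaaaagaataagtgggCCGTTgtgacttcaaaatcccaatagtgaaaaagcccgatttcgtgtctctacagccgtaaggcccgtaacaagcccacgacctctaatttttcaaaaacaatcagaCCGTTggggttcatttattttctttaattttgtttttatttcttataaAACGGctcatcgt
CYCB1;2 (chr5:1861704-1861953, minus strand): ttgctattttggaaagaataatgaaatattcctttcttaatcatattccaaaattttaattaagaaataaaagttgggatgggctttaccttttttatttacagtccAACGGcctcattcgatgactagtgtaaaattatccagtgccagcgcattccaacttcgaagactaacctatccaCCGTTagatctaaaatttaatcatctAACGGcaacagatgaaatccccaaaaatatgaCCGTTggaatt
CYCB2;3 (chr1:7137829-7138078, minus strand): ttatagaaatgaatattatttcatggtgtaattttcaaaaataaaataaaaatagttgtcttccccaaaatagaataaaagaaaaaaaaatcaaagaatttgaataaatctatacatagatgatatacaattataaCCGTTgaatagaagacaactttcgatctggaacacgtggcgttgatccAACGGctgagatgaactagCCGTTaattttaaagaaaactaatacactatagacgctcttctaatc
CYCB1;4 (chr2:11400868-11401117, plus strand): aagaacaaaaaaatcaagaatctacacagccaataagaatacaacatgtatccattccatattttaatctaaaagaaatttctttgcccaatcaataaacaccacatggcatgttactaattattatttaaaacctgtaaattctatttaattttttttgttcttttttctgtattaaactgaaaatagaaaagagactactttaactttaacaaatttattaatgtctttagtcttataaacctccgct
CYCB2;4 (chr1:28630790-28631039, minus strand): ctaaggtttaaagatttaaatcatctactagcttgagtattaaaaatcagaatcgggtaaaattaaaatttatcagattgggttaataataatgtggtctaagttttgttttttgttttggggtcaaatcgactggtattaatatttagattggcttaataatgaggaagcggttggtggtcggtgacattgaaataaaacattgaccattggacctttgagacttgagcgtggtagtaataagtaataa
CYCB1;1 has 3 copies, CYCB1;2 has 4 and CYCB2;3 has 3. Over the same window, 26 of the 51 genes (51.0%) hold at least 1 copy on either strand, against 22.3% of 17369 protein-coding promoters of genes in the table, and 13 (25.5%) hold 2 or more, against 4.26%. It is present at 4 of the 5 cytokinesis genes, all but KEU, and at none of the 6 genes for APC/C activators and subunit. Some windows lie largely in exons of other genes: 236 of the 250 bases at KEU, 239 at CCS52B, 250 at CKS2 and 241 at MYB3R4. A match describes these letters only.

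The sequencing depth was 10703769 to 14469527 reads per library over the listed genes, so 1 read is worth 0.0691 to 0.0934 reads per 1000000 (RPM). The members spanned 6 reads in the lowest library of CDKB1;2 to 1300 reads in the highest library of KN, and 49 of the 51 had at least 1 RPM in every library. Of the 3 DEX libraries, DEX-3 stood apart: its Spearman correlation across genes was 0.985 and 0.987 with the other DEX libraries, against 0.991 between these. The labelled tissue was checked with 6 markers of floral meristem and primordium, all of them present, whose summed level was 496 to 558 RPM in DEX and 625 to 665 RPM in DMSO, and of which 2 fell and 4 did not pass. Of 7 tapetum markers 3 were measured, A9, AMS and ACOS5, and each was higher in DEX, with a sum of 14.4 to 16.1 RPM in DEX and 4.74 to 6.72 RPM in DMSO. AMS reached 1 RPM in 3 DEX and 0 DMSO libraries and ACOS5 in 3 DEX and 1 DMSO library, so AMS is in the table through its DEX values alone and this count of markers is no support for a change. The 2 meiotic markers measured of 7 summed to 7.19 to 7.57 RPM in DEX and 6.96 to 9.49 RPM in DMSO. Of these SDS fell, with a log2 fold change of -0.55, and DMC1 did not pass (0.13). The 5 green tissue markers, of which 3 rose and 2 did not pass, summed to 9798 to 10288 RPM in DEX and 8444 to 8690 RPM in DMSO. Whether these marker values reflect tissue makeup or expression, and their part in the results below, was not tested, and in bulk tissue fewer dividing cells and less RNA per dividing cell cannot be told apart.

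Most mitosis genes had less RNA in DEX, by moderate amounts. Of the 51 genes, 35 fell (68.6%), where 28.1% of all genes tested fell, and 4 rose (7.84%), where 29.6% of all genes tested rose. These 39 genes stand against 57.7% of all genes called in either direction. In edgeR and DESeq2, which call 57.4% and 54.8% of all genes, 36 of the 39 also passed. The remaining 12 did not pass an adjusted p of 0.05 in limma, a linear model on log2(RPM + 1) with Benjamini-Hochberg adjustment over all genes. The median log2 fold change was -0.45 over the 51 genes and 0.004 over all genes tested, with a range from -1.38 for UVI4 to 0.62 for 3xHMG-box1. In 37 genes every DEX value lay below every DMSO value, as in 30.7% of all genes, and in 5 every DEX value lay above, as in 32.1% of all genes. Their summed level was 1087, 1105 and 1065 RPM in DEX-1 to DEX-3 and 1375, 1391 and 1392 RPM in DMSO-1 to DMSO-3. A fall of at least 1 on the log2 scale was reached by 7 genes, where 5.23% of all genes reached it, and a rise of that size by none, where 8.84% of all genes reached it. Among the 35 genes that fell, DEX-3 was the lowest DEX library in 23, against 43.0% of all genes that fell, and without DEX-3 33 genes fell and 4 rose.

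**Figure D1:**
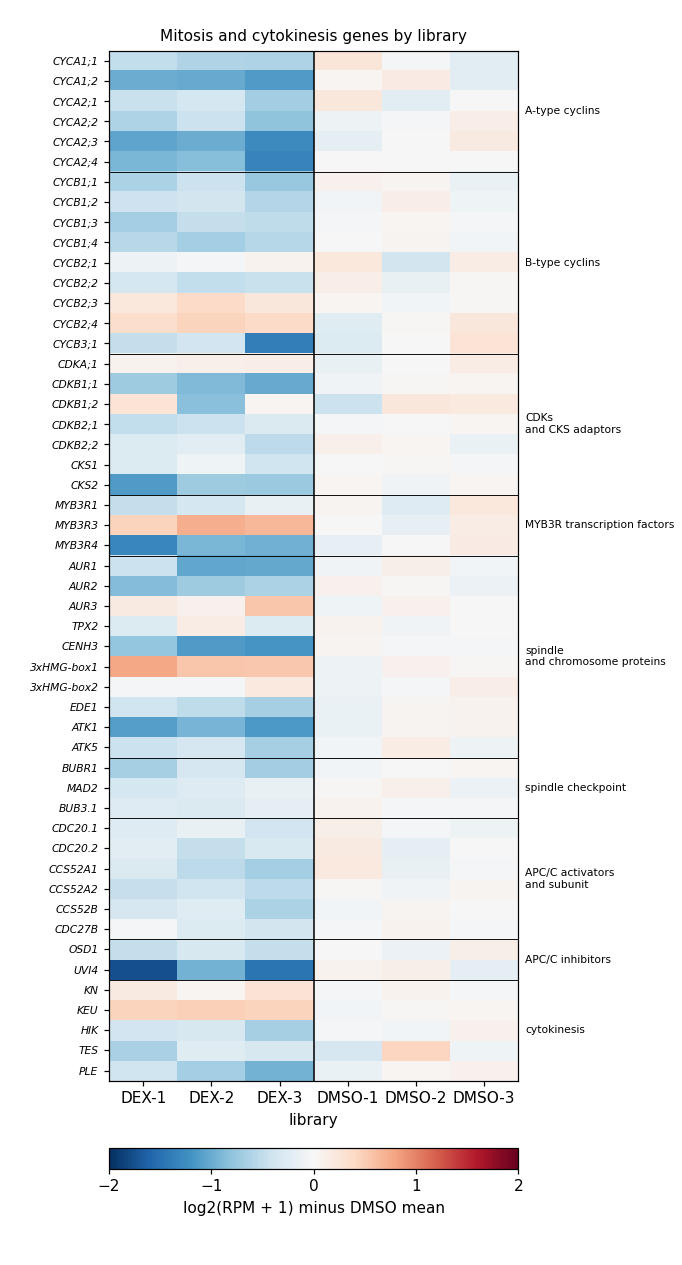
Each row is a gene and each column a library, coloured by log2(RPM + 1) minus the mean of the 3 DMSO libraries, blue for lower and red for higher. Blue fills most DEX cells, with 35 genes that fell, and the 4 that rose (CYCB2;4, MYB3R3, 3xHMG-box1 and KEU) show as red rows.

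Levels per length of transcript, as RPM per kilobase of annotated exon, put the small CKS2 gene high in both groups, with 45.7 in DEX and 83.5 in DMSO. CDKB2;1 had 44.3 in DEX and 58.6 in DMSO, and KN had 60.6 in DEX and 53.7 in DMSO. At the low end CYCA2;1 had 0.405 in DEX and 0.787 in DMSO, and CDKB1;2 had 0.888 in DEX and 1.04 in DMSO. KN was thus the gene with the highest level per length in DEX, and CKS2 in DMSO.

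All 6 A-type cyclins had lower values in every DEX library than in any DMSO library, as did 30.7% of all genes. Of the 6, 5 fell, as did 28.1% of all genes. CYCA2;3 (AT1G15570), whose group of cyclins restrains the switch to endoreduplication, had 23.0, 24.1 and 19.7 RPM in DEX, against 43.0, 49.2 and 55.5 RPM in DMSO. Its groups were far apart, with a log2 change of -1.11 (SE 0.111, limma adjusted p = 1.92e-07). CYCA2;4 (AT1G80370) had 12.8, 13.4 and 9.38 RPM in DEX, against 25.2, 25.1 and 24.97 RPM in DMSO, a log2 change of -1.04 (SE 0.135, adjusted p = 4.55e-06). The DMSO libraries of this gene were nearly equal and DEX-3 was the lowest. CYCA1;2 (AT1G77390), the TAM cyclin known for its part in meiosis, had 2.34, 2.28 and 2.03 RPM in DEX, against 5.79, 6.45 and 4.74 RPM in DMSO (log2 fold change -1.04, adjusted p = 0.000168). CYCA2;2 (AT5G11300) had 3.36, 3.94 and 2.80 RPM in DEX, against 5.23, 5.50 and 6.32 RPM in DMSO, a log2 fold change of -0.62. The change of CYCA1;1 was -0.57. CYCA2;1 (AT5G25380), at 8 to 24 reads per library, had a log2 difference of -0.50 that did not pass (adjusted p = 0.0811), but did when limma used no intensity trend (adjusted p = 0.0195). It reached 1 RPM in no DEX library and is in the table through its DMSO values, a choice that favours genes that differ.

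Of the 9 B-type cyclins 6 fell and 1 rose, where 28.1% of all genes fell and 29.6% rose. The 4 members of the B1 group all fell, while the 4 of the B2 group showed 1 fall, 1 rise and 2 values that did not pass. CYCB1;1 (AT4G37490), widely used as a reporter of cells in G2 and M, had 15.3, 17.8 and 13.9 RPM in DEX, against 25.7, 25.2 and 22.0 RPM in DMSO. Its log2 fold change was -0.61 (SE 0.123, limma adjusted p = 0.000462), and the groups did not overlap. CYCB1;4 (AT2G26760) had 17.0, 15.4 and 16.9 RPM in DEX, against 25.4, 26.3 and 24.5 RPM in DMSO, a log2 change of -0.60 (SE 0.110, adjusted p = 0.000170). CYCB1;3 (AT3G11520) had 7.94, 9.26 and 9.03 RPM in DEX, against 13.1, 13.7 and 13.0 RPM in DMSO, a log2 fold change of -0.55. In each B1 gene every DEX value was below every DMSO value, as in 30.7% of all genes. CYCB1;2, which had the highest level per length of the group (20.12 RPM per kilobase in DEX and 27.8 in DMSO), changed by -0.45. Of the 50-base stretches in its transcript, 11.2% occur also in CYCB1;5 (AT1G34460), so reads may be split between them.

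CYCB3;1 (AT1G16330) had 4.02, 4.35 and 1.68 RPM in DEX, against 4.82, 5.94 and 7.51 RPM in DMSO, a log2 change of -0.75 (SE 0.246, limma adjusted p = 0.0149). DEX-3 was far below the other DEX libraries here: without it the log2 fold change was -0.43 (adjusted p = 0.0789), and without DMSO-3 it was -0.61 (adjusted p = 0.0892). CYCB2;4 (AT1G76310) went the other way, with 17.5, 18.6 and 17.8 RPM in DEX, against 11.2, 13.7 and 15.9 RPM in DMSO. Its rise of 0.39 (SE 0.137, adjusted p = 0.0212) was lost when DEX-2 (0.37, adjusted p = 0.0640) or DMSO-1 (0.27, adjusted p = 0.123) was left out. CYCB2;3 also had every DEX value above every DMSO value, at 14.4, 16.3 and 14.6 RPM in DEX and 12.7, 11.8 and 12.5 RPM in DMSO, but its difference of 0.27 did not pass (adjusted p = 0.0792, and 0.0368 without the intensity trend). This gene shares 17.3% of its 50-base stretches with AT1G20590, which is not among the 17675 listed genes. CYCB2;2 fell by 0.43 on the log2 scale (adjusted p = 0.0177), a call lost when DEX-2 (0.0529), DMSO-1 (0.0801) or DMSO-3 (0.0501) was left out. CYCB2;1 differed by -0.02, with a 95% interval from -0.43 to 0.39.

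Of the 4 B-type CDKs 3 fell, both CKS adaptors fell, and CDKB1;2 and the constitutive CDKA;1 did not pass. Among all genes 28.1% fell. CDKB1;1 (AT3G54180), which with CYCA2 cyclins keeps cells in the mitotic cycle, had 18.0, 15.9 and 14.6 RPM in DEX, against 28.9, 30.9 and 31.1 RPM in DMSO. The log2 fold change was -0.87 (SE 0.113, limma adjusted p = 4.20e-06). CKS2 (AT2G27970), a small docking protein of CDKs, had 28.5, 38.4 and 37.7 RPM in DEX, against 65.4, 60.4 and 65.1 RPM in DMSO, a log2 change of -0.86 (SE 0.106, adjusted p = 2.26e-06). In both genes the lowest DMSO library was well above the highest DEX library. CDKB2;1 (AT1G76540), needed for a normal shoot meristem together with its relative CDKB2;2, had 56.8, 59.4 and 65.4 RPM in DEX, against 78.2, 80.2 and 82.2 RPM in DMSO (log2 fold change -0.40). CDKB2;2 (AT1G20930) had 25.5, 26.3 and 21.1 RPM in DEX, against 33.1, 31.8 and 28.2 RPM in DMSO, a log2 fold change of -0.34 (adjusted p = 0.0148, and 0.0721 without DMSO-1 and 0.0544 without DMSO-2). CKS1 changed by -0.26 (adjusted p = 0.0320), a call that was kept without DEX-2 and lost without any other library, with adjusted p from 0.0686 to 0.0881, and without the intensity trend (0.0701). CDKA;1 (AT3G48750), the kinase of the whole cell cycle, had 68.8, 70.2 and 72.2 RPM in DEX, against 58.7, 65.9 and 72.5 RPM in DMSO, with overlapping groups and a 95% interval of the log2 difference from -0.08 to 0.28. CDKB1;2 had 2.06, 0.415 and 1.61 RPM in DEX, against 0.884, 1.98 and 1.90 RPM in DMSO, or 6 to 27 reads, and a 95% interval from -0.79 to 0.44 that leaves a moderate change in either direction undetectable at this depth.

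**Figure D2:**
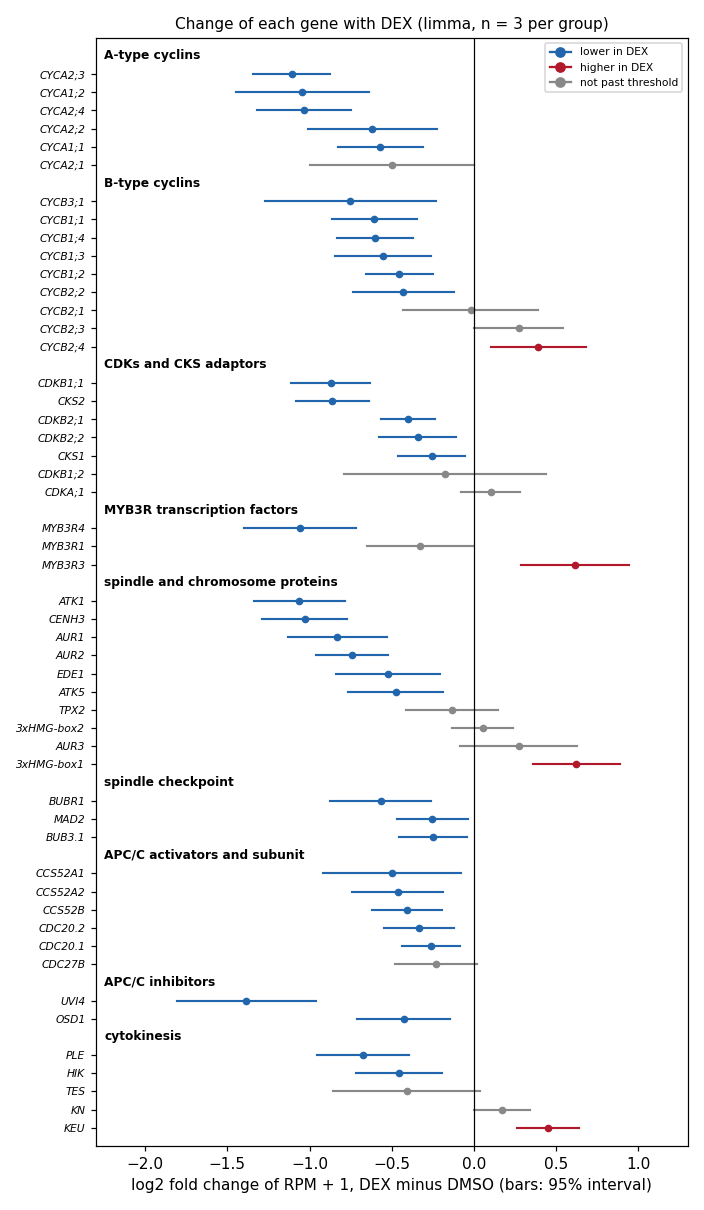
The log2 fold change of each gene (points, DEX minus DMSO on log2(RPM + 1)) with its 95% interval from limma, sorted within its group by size, 3 libraries per treatment. The 3 spindle checkpoint genes shown and both APC/C inhibitors lie left of 0, and the 4 genes that rose lie in 4 different groups.

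Of the 3 MYB3R transcription factors among the 51 genes, which act on the AACGG element, 1 fell, 1 rose and 1 did not pass. These shares are near those of all genes, of which 28.1% fell and 29.6% rose, and are no result about the group. MYB3R4 (AT5G11510), an activator, had 5.14, 7.05 and 6.79 RPM in DEX, against 12.5, 14.2 and 16.0 RPM in DMSO. It fell by 1.06 on the log2 scale (SE 0.160, limma adjusted p = 2.37e-05), and every DEX value was below every DMSO value. MYB3R3 (AT3G09370), known as a repressor, rose, with 10.0, 12.3 and 11.8 RPM in DEX, against 7.08, 6.23 and 7.98 RPM in DMSO (log2 fold change 0.61, SE 0.156, adjusted p = 0.00278). MYB3R5 (AT5G02320), a repressor that is not among the 51 genes, had 8.50, 10.2 and 13.2 RPM in DEX, against 3.62, 4.25 and 4.27 RPM in DMSO. Its rise of 1.19 (SE 0.180, adjusted p = 2.33e-05) was the largest among the 89 further mitosis genes described below. MYB3R1 (AT4G32730), to which both roles have been ascribed, had 9.34, 10.2 and 11.9 RPM in DEX, against 13.9, 10.99 and 15.6 RPM in DMSO. Its groups overlapped and its difference of -0.33 did not pass (adjusted p = 0.0781), but passed without DEX-3 (-0.41, adjusted p = 0.0283) and without DMSO-2 (-0.46, adjusted p = 0.0284).

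The changes of the 51 genes were set beside the presence of the AACGG element in the 250 bases. Of 26 genes with AACGG 17 fell and 2 rose, with a median log2 fold change of -0.44, and of 25 without it 18 fell and 2 rose, with a median of -0.46. The 13 genes with 2 or more copies had a median of -0.45 and 7 falls. Over all genes tested the medians were -0.02 for 3875 genes with the element and 0.01 for 13494 without it. Of these, 29.7% and 28.0% fell. These are descriptions of the 250 bases, which at some genes lie in exons of other genes. No test was made, and other windows were not searched.

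**Figure D3:**
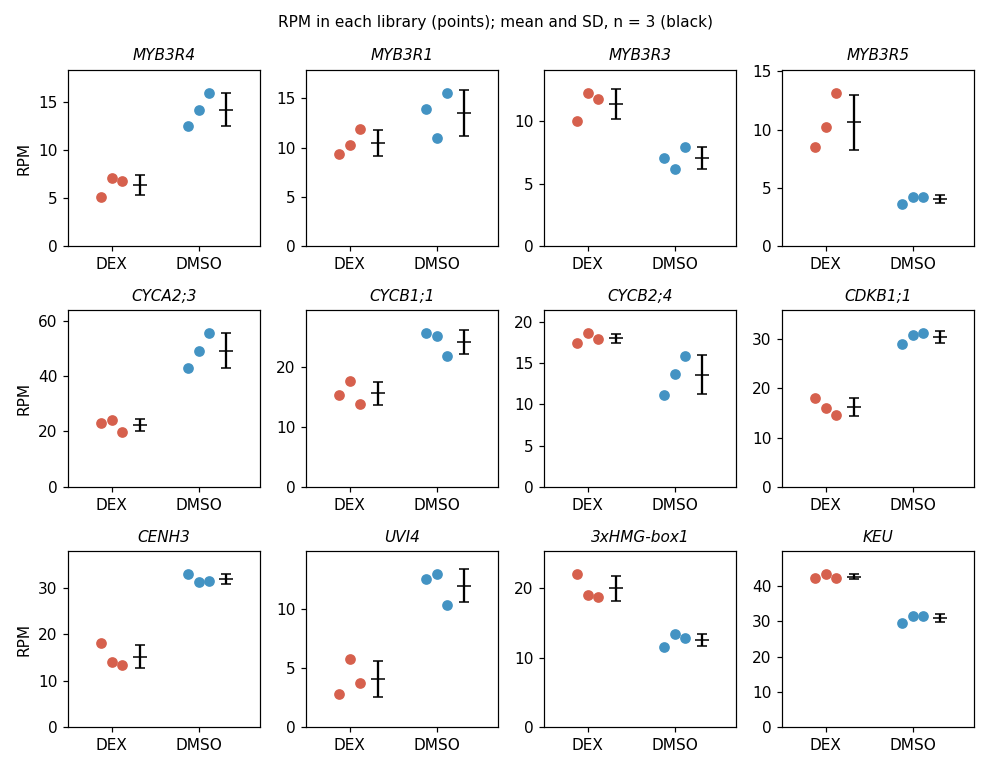
RPM in each library (points, DEX left of DMSO) with the mean and SD of 3 libraries in black, on linear axes that start at 0, for the 4 MYB3R genes measured and 8 other genes. MYB3R4 is lower in DEX while MYB3R3 and MYB3R5 are higher, and the groups of MYB3R1 overlap. The 8 other genes were chosen from those past the threshold, all with separate groups, so their separation is no result. Among the 51 genes, 9 had overlapping groups, as did 6559 of all 17675 genes tested.

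Of the 10 spindle and chromosome genes 6 fell and 1 rose, where 28.1% of all genes fell and 29.6% rose. ATK1 (AT4G21270), a kinesin that focuses spindle poles, had 9.25, 10.6 and 8.96 RPM in DEX, against 19.2, 21.9 and 22.2 RPM in DMSO, a log2 change of -1.06 (SE 0.130, limma adjusted p = 2.20e-06). CENH3 (AT1G01370), the histone H3 variant of centromeres, had 18.1, 14.0 and 13.4 RPM in DEX, against 33.0, 31.1 and 31.4 RPM in DMSO, a log2 change of -1.03 (SE 0.122, adjusted p = 1.44e-06). In both genes the highest DEX library was far below the lowest DMSO library. The Aurora kinases, which act on chromosomes and spindle, did not move alike: AUR1 (AT4G32830) had 24.9, 16.0 and 16.2 RPM in DEX, against 32.3, 36.9 and 32.7 RPM in DMSO, a log2 fold change of -0.83. AUR2 (AT2G25880) had 20.6, 23.1 and 24.4 RPM in DEX, against 41.2, 39.4 and 35.4 RPM in DMSO, a log2 fold change of -0.74. AUR3, a kinase of the centromere, had 7.57, 6.98 and 10.0 RPM in DEX, against 6.11, 7.04 and 6.48 RPM in DMSO, with overlapping groups (adjusted p = 0.181). AUR2 has 36.9% of its exon bases, AUR1 19.2% and AUR3 10.4% in common with a gene on the opposite strand, so without knowledge of strand their reads are less certain. The same holds for CCS52B (19.5%), CDKB1;2 (18.3%), CDKB2;2 (13.8%) and ATK5 (11.8%).

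3xHMG-box1 (AT4G11080), a DNA-binding protein of condensed mitotic chromosomes, rose, with 22.0, 19.0 and 18.8 RPM in DEX, against 11.6, 13.3 and 12.8 RPM in DMSO. The log2 fold change was 0.62 (SE 0.126, limma adjusted p = 0.000419), and the groups were apart. Its relative 3xHMG-box2 had 67.0, 67.3 and 78.5 RPM in DEX, against 63.4, 66.4 and 75.0 RPM in DMSO, which overlap, with a 95% interval of the log2 difference from -0.13 to 0.24. Both genes overlap a WRKY gene on the opposite strand. For 3xHMG-box1 the overlap is 22.4% of exon bases, and its partner WRKY41 is not among the 17675 listed genes. For 3xHMG-box2 it is 19.1%, and its partner WRKY53 had 17.1 ± 1.20 RPM in DEX and 7.49 ± 1.42 RPM in DMSO (SD, n = 3 each). The part of these partners in the 3xHMG-box values was not tested. ATK5 and EDE1, proteins of spindle and phragmoplast microtubules, fell by 0.48 and 0.52 on the log2 scale. TPX2, a spindle assembly factor, did not pass, with a 95% interval from -0.41 to 0.15.

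Of the spindle checkpoint, which holds the APC/C until all chromosomes are attached, 3 genes are among the 51. Each fell, where 28.1% of all genes fell. Of further checkpoint genes, MPS1 (AT1G77720) and BUB3.2 (AT1G49910) fell, by log2 fold changes of -0.98 (limma adjusted p = 4.41e-05) and -0.63 (0.00458). MAD1, BUB3.3 and BUB1 did not pass, with log2 differences of 0.07 (limma adjusted p = 0.682), 0.25 (0.227) and -0.21 (0.165). BUBR1 (AT2G33560) had 8.13, 10.4 and 7.98 RPM in DEX, against 13.0, 13.6 and 13.8 RPM in DMSO, a log2 change of -0.57 (SE 0.146, limma adjusted p = 0.00309). MAD2 (AT3G25980) had 25.5, 27.3 and 29.7 RPM in DEX, against 33.3, 35.4 and 30.2 RPM in DMSO. BUB3.1 (AT3G19590) had 25.5, 25.1 and 26.7 RPM in DEX, against 32.2, 30.1 and 30.1 RPM in DMSO. In BUBR1, MAD2 and BUB3.1 the highest DEX value was below the lowest DMSO value, as in 30.7% of all genes. The log2 fold changes of MAD2 and BUB3.1 were both -0.25, with adjusted p of 0.0446 and 0.0366. The MAD2 call was kept without DEX-3 or DMSO-3 and lost without DEX-1 (adjusted p = 0.147), DEX-2 (0.0896), DMSO-1 (0.109) or DMSO-2 (0.174), with DESeq2 (0.0600) and without the intensity trend (0.0707). The BUB3.1 call was kept without DEX-3, lost without any other library (adjusted p from 0.0639 to 0.124) and lost with DESeq2 (0.0512).

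Of the 6 genes for APC/C activators and subunit 5 fell, and both APC/C inhibitors fell, where 28.1% of all genes fell. UVI4 (AT2G42260), an inhibitor of the APC/C that restrains endoreduplication, had 2.80, 5.74 and 3.71 RPM in DEX, against 12.5, 13.0 and 10.4 RPM in DMSO. Its log2 fold change of -1.38 (SE 0.199, limma adjusted p = 1.37e-05) was the lowest of the 51 genes, and the groups were far apart. Its relative OSD1 (AT3G57860), which inhibits the APC/C at the meiotic divisions, had 10.2, 11.4 and 10.1 RPM in DEX, against 14.6, 13.3 and 15.8 RPM in DMSO (log2 fold change -0.43, adjusted p = 0.0120, and 0.0553 without DMSO-3). CCS52B (AT5G13840), an activator active from G2 to M, had 42.0, 45.0 and 34.2 RPM in DEX, against 51.5, 55.6 and 53.7 RPM in DMSO, a log2 change of -0.41 (SE 0.1002, adjusted p = 0.00224). CCS52A2 (AT4G11920), needed in root and shoot meristems, had 10.3, 10.7 and 9.73 RPM in DEX, against 14.7, 13.8 and 15.0 RPM in DMSO (log2 fold change -0.46). CCS52A1 (AT4G22910), which promotes endoreduplication, had 3.46, 2.76 and 2.38 RPM in DEX, against 5.23, 3.88 and 4.27 RPM in DMSO. Its fall of 0.50 on the log2 scale (adjusted p = 0.0395) was kept without DEX-1 or DMSO-2 and lost without DEX-2 (0.0846), DEX-3 (0.121), DMSO-1 (0.151) or DMSO-3 (0.0698) and with DESeq2 (0.0616). CDC27B, the APC/C subunit also called HOBBIT, was below DMSO in every DEX library, but its difference of -0.23 did not pass (adjusted p = 0.103), except without DEX-1 (-0.32, adjusted p = 0.0389).

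The neighbouring genes CDC20.1 and CDC20.2, whose products start anaphase through the APC/C, share 31.4% and 33.2% of their 50-base stretches with each other, so how their reads were split is uncertain. CDC20.2 (AT4G33260) had 44.9, 37.7 and 42.3 RPM in DEX, against 60.0, 46.5 and 52.2 RPM in DMSO, a log2 fold change of -0.33 (limma adjusted p = 0.01001). CDC20.1 (AT4G33270) had 69.6, 74.6 and 63.6 RPM in DEX, against 90.3, 81.6 and 77.7 RPM in DMSO, a log2 fold change of -0.26 (adjusted p = 0.0137). Their sum, which does not depend on that division, was 111 ± 4.46 RPM in DEX and 136 ± 12.3 RPM in DMSO (SD, n = 3 each), and the groups of sums did not overlap. DMSO-1 was the highest library of both genes. Without it the adjusted p was 0.0811 for CDC20.2 and 0.0906 for CDC20.1, without DEX-2 that of CDC20.2 was 0.0553, and without the intensity trend they were 0.0507 and 0.0660.

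Of the 5 cytokinesis genes 2 fell and 1 rose, shares near those of all genes (28.1% and 29.6%), and TES and KN did not pass. PLE (AT5G51600), the MAP65-3 protein that bundles microtubules in the middle of the phragmoplast, had 22.3, 18.3 and 15.0 RPM in DEX, against 27.3, 30.6 and 31.8 RPM in DMSO. It fell by 0.67 on the log2 scale (SE 0.132, limma adjusted p = 0.000304). HIK (AT1G18370), the kinesin HINKEL of the phragmoplast, had 16.3, 17.1 and 13.4 RPM in DEX, against 21.1, 20.9 and 23.2 RPM in DMSO, a log2 fold change of -0.46. Its relative TES, the kinesin TETRASPORE, had 3.08, 4.42 and 4.13 RPM in DEX, against 4.10, 7.62 and 5.06 RPM in DMSO, which overlap (adjusted p = 0.110, and 0.0467 without DMSO-1). KEU (AT1G12360), the Sec1-type partner of the syntaxin KNOLLE in cell plate fusion, was higher, with 42.2, 43.5 and 42.3 RPM in DEX, against 29.6, 31.5 and 31.6 RPM in DMSO (log2 fold change 0.45, SE 0.0892, adjusted p = 0.000327). KN (AT1G08560), which encodes KNOLLE, had 84.4, 76.6 and 91.0 RPM in DEX, against 73.3, 77.9 and 72.1 RPM in DMSO. Its groups overlapped and the difference of 0.17 did not pass (adjusted p = 0.0817), except without DEX-2 (0.23, adjusted p = 0.0323). A share of 33.5% of the KN exon bases lies opposite NPQ1 (AT1G08550), which had 14.2 ± 1.54 RPM in DEX and 7.88 ± 0.786 RPM in DMSO (SD, n = 3 each), and the part of that gene in the KN value was not tested.

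Of 91 further genes of mitosis 89 were measured, of which 51 fell (57.3%) and 5 rose (5.62%), with a median log2 fold change of -0.42, where 28.1% of all genes fell and 29.6% rose. The shares that fell among the APC/C subunits (36.4%) and in the kinetochore and checkpoint list (41.7%) are near that of all genes and are no result about these lists. The 14 genes of spindle microtubules had 11 falls and no rise. CLASP, which stabilises growing microtubule ends, had 26.8, 26.5 and 30.9 RPM in DEX, against 63.0, 64.0 and 65.7 RPM in DMSO, a log2 change of -1.17 (SE 0.0904, limma adjusted p = 6.50e-09), and GCP3, of the gamma-tubulin complex, and EB1B, a plus-end protein, changed by -0.79 and -0.80. Of 16 cohesin, condensin and separase genes 10 fell and none rose. SYN3 (AT3G59550), a cohesin subunit, had 3.74, 2.21 and 1.82 RPM in DEX, against 15.0, 13.6 and 13.7 RPM in DMSO, a log2 fold change of -2.11, and AT4G15890 and AT5G37630 of this list changed by -1.34 and -1.13. Among 24 phragmoplast and division plane genes 15 fell and 3 rose, with NPSN11, a SNARE protein (-1.21), RUK, a kinase (-1.11), and CSLD5, a wall polysaccharide synthase (-1.06), showing the largest falls. In the kinetochore and checkpoint list 5 of 12 fell, and 7 did not pass, with the largest falls at AT1G77720 (-0.98), AT1G49910 (-0.63) and CENP-C, a centromere protein (-0.54). Of 11 APC/C subunits 4 fell and 1 rose, with APC6 at -1.07, APC1 at -0.99 and APC8 at -0.57, and APC8 missed the threshold when DEX-2 was left out (-0.39, adjusted p = 0.0507). In the last list, CDK activation and transcription, 6 of 12 fell and MYB3R5 rose. WEE1, a kinase that delays mitosis after DNA damage in plants, had 2.06, 2.63 and 1.82 RPM in DEX, against 7.08, 8.21 and 11.2 RPM in DMSO (log2 fold change -1.62), and RBR1, the retinoblastoma-related regulator of S phase entry, changed by -1.13.

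Most genes of 2 lists that act earlier in the cell cycle fell as well, where 28.1% of all genes fell. All 12 DNA replication genes fell, with a median log2 fold change of -1.75 and a range from -2.41 to -0.85, a range that overlaps that of the 51 genes. PCNA1, the sliding clamp, and TSO2, a subunit of the enzyme that makes deoxyribonucleotides, were the lowest, at -2.41 and -2.11. Of 9 D-type cyclins, which act at the start of the cycle, 8 fell and the median was -0.98, with CYCD4;1 at -1.42 and CYCD3;1 at -1.34. Among the genes that fell, the replication gene CDC6, at 7 to 37 reads, reached 1 RPM in 1 DEX library. CYCD4;2 did so in 2 DEX libraries. Both reached it in 3 DMSO libraries, so they are in the table through their DMSO values. The difference between these lists was not tested.

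**Figure D4:**
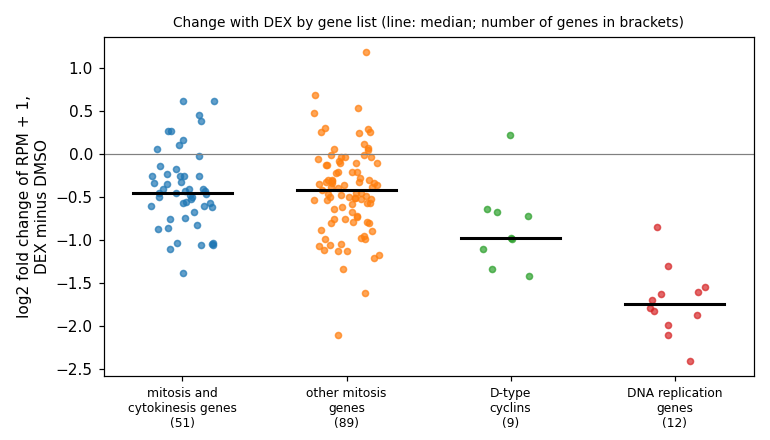
Points are the log2 fold changes (DEX minus DMSO on log2(RPM + 1)) of 51 mitosis and cytokinesis genes, 89 other mitosis genes, 9 D-type cyclins and 12 DNA replication genes, and lines are medians. The medians lie at -0.45, -0.42, -0.98 and -1.75.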

How the data were processed

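RNA-seq of 6 inflorescence libraries was analysed, 3 per treatment, grouped and numbered by their labels. The submitters' processing notes name TopHat and HTSeq, and the sources used here give no versions, genome build or strand setting. The deposited table holds reads per 1000000 reads (RPM) over its 17675 genes, and every listed gene reaches 1 RPM in 3 libraries or more. Whole reads were recovered from the RPM (100% of values within 0.01 reads, edgeR calls 10146 genes on them), and 3 reads are 0.207 to 0.280 RPM, which covers counting error only.

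RPM were tested as log2(RPM + 1), which understates changes of weak genes, by limma 3.58.1 (R 4.3.3, two-sided, intensity trend), adjusted over all genes, threshold 0.05. The limma step was run on simulated reads with far fewer changed genes than here and a fixed spread, which checks the code and not these calls. The alternatives comprised pseudocounts of 0.1 and 5, no minimum or one of 5 RPM, TMM or median-of-ratios scaling, robust limma, limma with no trend, edgeR 4.0.16 and DESeq2 1.42.0 on recovered reads, a replicate block, a minimum change and leaving out each library. The fit with no minimum could not differ from the main one, since every listed gene meets the minimum. Values by library are given, in each role group, for up to 4 genes past the threshold by size of change and for genes against the majority, and for further members chosen after their values were seen. Of each further mitosis list up to 3 such genes are named, and of each earlier cell cycle list up to 2.

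The members and all further lists were chosen with earlier results of these data known. Names, exon lengths, overlaps, 50-base stretches shared between transcripts and promoters come from RefSeq TAIR10.1, which matched 17646 identifiers and not 29. The build behind the deposited table is not given, and coordinates are those of the printed sequences in TAIR10.1. Nothing says that replicates came from separate plants, so the p-values reflect the spread of these libraries alone, which may be technical. Replicate libraries differed beyond sampling noise, with chi-square values of 2.80 to 12.0 per degree of freedom.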

Additional observations from a re-analysis of the deposited data

How the results depend on the processing

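The counts of members were 35 lower and 4 higher. With a fold change of at least 1 on the log2 scale also asked for, they were 7 and 0, and those of the further mitosis genes were 11 lower and 1 higher, against 51 and 5. The median log2 fold change of the members was -0.45, against -0.35 with a pseudocount of 5 RPM, which shrinks changes of weak genes by construction. With 1 library left out, 28 to 33 members were lower and 3 or 4 higher, 44 to 54 further genes were lower and 4 to 6 higher, and the median ran from -0.49 to -0.41. Of the 39 members called, 28 passed without each library in turn, 25 of them lower, and 36 also passed in edgeR and DESeq2. Differences that changed sign were all uncalled: with 1 library left out, CYCB2;1 ran from -0.20 to 0.0896 (positive when DEX-1, DMSO-1 or DMSO-3 was left out), CDKB1;2 from -0.40 to 0.16 (positive when DEX-2 was) and 3xHMG-box2 from -0.0201 to 0.12 (negative when DEX-3 was). The cause was not tested. Same-numbered libraries did not deviate together (correlations of -0.0471, 0.0622 and 0.0291), nor did every DEX library correlate best with its own number, so the numbers were not taken as pairs. With the replicate number as a block 34 members were lower and 4 higher, and MAD2 had an adjusted p of 0.0541. Few reads limit CDKB1;2 and CYCA2;1.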
